A study of Mus musculus with 36 samples.

Results

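The comparison described here is that of 1-month-old Tpp1-/- mice with their unaffected siblings in the cerebellum (Cb), across genes and gene families. It rests on 6 of the 36 libraries of the series, chosen by their labels alone, with 3 libraries per genotype. The series profiled mRNA of Cb and of a combined forebrain/midbrain (F/M) dissection at 1, 2 and 3 months, and the F/M libraries of 1 month and the Cb libraries of the other ages are used here only for reference. Each library was a biological replicate of a gene-targeted line kept by crosses of heterozygotes, in which every cell lacks the allele, so that a change cannot be assigned to one cell type. Control libraries 1 and 2 were wild type and control library 3 was Tpp1+/-. Control 1 and Tpp1-/- 1 came from females and the other 4 from males. The F/M libraries of 1 month had the same genotypes and sexes by replicate number. All controls of 2 and 3 months were wild type. The 2-month libraries all came from males, and at 3 months replicate 3 of each genotype was female. Whether the Cb and F/M of a replicate number came from the same mouse was not stated in the sources used here.

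Tpp1 encodes tripeptidyl peptidase 1, a lysosomal protease that removes tripeptides from the amino end of proteins inside the lysosome. Its loss causes the late infantile form of neuronal ceroid lipofuscinosis (NCL), CLN2 disease, in which storage material builds up in neurons and glia and the cerebellum is among the regions affected. Activated microglia, complement and reactive astrocytes are known features of advanced disease, whereas little overt pathology is known at the youngest ages.

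Raw counts were summed over a gene's exons. Of 55450 annotated genes, 17916 had enough reads to be tested. Genotypes were compared with the quasi-likelihood test of edgeR, with p adjusted by the Benjamini-Hochberg method over all genes tested, and a DEG had an adjusted p under 0.1 and at least a 1.5-fold change. Levels are given as CPM, counts scaled by TMM to a common library size, in the order control 1, 2, 3 and then Tpp1-/- 1, 2, 3, and differences as the log2 fold change of Tpp1-/- against control. The libraries held 17637111 (Tpp1-/- 2) to 29942380 (control 3) counts. They carried the markers of the labelled tissue: Gabra6, a GABA-A receptor subunit of granule cells, lay at 727 to 936 CPM in Cb and at 0.0806 to 2.84 CPM in F/M, and Pcp2, a protein of Purkinje cells, at 154 to 258 CPM in Cb and at no more than 0.328 CPM in F/M.

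Loss of Tpp1 left nearly all tested transcripts below the threshold in the 1-month Cb. Exactly 2 of 17916 genes (0.0112%) were DEGs, Tpp1 itself and Trim12a, a member of the Trim5/Trim12/Trim30 cluster, which includes antiviral ubiquitin ligases, and both were lower in Tpp1-/-. The count was 1 when control 1, control 2, Tpp1-/- 1 or Tpp1-/- 2 was left out, since the call of Trim12a was then lost, and 272 when Tpp1-/- 3 was left out. The reference sequence around the transcription start of both genes is printed because they are the only DEGs. Each runs from 250 bases before to 50 bases after the start on the minus strand, in the RefSeq table of build GRCm38.p6, at chr7:105752186-105752485 for Tpp1 and chr7:104315446-104315745 for Trim12a. Capitals mark the 8 letters TCATGTGA on either strand, letters of the kind read by the TFEB and MITF family of lysosomal gene regulators, searched for after the Tpp1 sequence had been looked at.
Tpp1: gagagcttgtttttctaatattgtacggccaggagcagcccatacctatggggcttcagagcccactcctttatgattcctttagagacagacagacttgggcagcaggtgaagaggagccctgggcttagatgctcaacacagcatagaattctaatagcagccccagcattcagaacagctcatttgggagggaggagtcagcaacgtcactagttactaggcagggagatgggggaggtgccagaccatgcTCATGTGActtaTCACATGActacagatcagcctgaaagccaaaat
Trim12a: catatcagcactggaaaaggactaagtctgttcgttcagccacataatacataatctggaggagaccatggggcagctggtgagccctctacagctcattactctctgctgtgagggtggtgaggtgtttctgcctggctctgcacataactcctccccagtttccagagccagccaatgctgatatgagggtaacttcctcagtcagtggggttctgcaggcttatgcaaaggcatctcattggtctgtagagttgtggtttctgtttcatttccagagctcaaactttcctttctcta

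The Tpp1 window held TCATGTGA 2 times, once on each strand, and the Trim12a window did not hold it. Over the 27025 genes of the table, 310 windows (1.15%) held these letters. Of the 35 lysosomal genes listed here, 28 had a window in the table, of which 3 (10.7%) held TCATGTGA, 3 (10.7%) held TCACGTGA and 10 (35.7%) held the shorter CACGTG that lies inside TCACGTGA. The shares over all genes were 1.12% for TCACGTGA and 8.09% for CACGTG. These matches are a description of letters and not of binding.

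Tpp1 (ENSMUSG00000030894, chr7:105744811-105752235, minus strand, mm10) gave 89.5 and 87.8 CPM in the wild-type controls, 55.9 CPM in the Tpp1+/- control and 16.7, 20.1 and 19.9 CPM in Tpp1-/-. The groups did not overlap, and the heterozygous library was the lowest control. The means were 77.7 ± 18.9 CPM (SD, n = 3) and 18.9 ± 1.89 CPM (SD, n = 3), and the log2 fold change was -2.04 (SE 0.19, adjusted p = 0.000283 by edgeR). Without the heterozygous library it was -2.23 (adjusted p = 2.1e-05), and the DEGs were again these 2 genes, 0.0109% of those tested. Counts per gene do not show where in the gene the reads left in Tpp1-/- lay.

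Trim12a (ENSMUSG00000066258, chr7:104299894-104315466) had 50, 24 and 32 counts in the controls and 0 counts in all 3 Tpp1-/- libraries. The control level of 1.39 CPM was low, and against the level that 3 counts per library would give, Trim12a was at least 10.1-fold lower in Tpp1-/- (adjusted p = 0.0527 by edgeR). The gene lies 1.44 Mb from Tpp1, and 10.4% of its 50-base stretches also occur in other genes, chiefly Trim5. The adjusted p was 0.0483 with other size factors and 0.13 without control 1, 0.11 without control 2, 0.106 without Tpp1-/- 1 and 0.28 without Tpp1-/- 2. The F/M controls of 1 month lay at 0.925 to 2.22 CPM with Tpp1-/- at 0. The 2-month Cb gave 1.96 to 2.53 CPM against 0 to 0.0625 CPM. At 3 months the groups overlapped, with 1.07 to 1.28 CPM in controls and 1.27 to 2.15 CPM in Tpp1-/-.

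**Figure D1:**
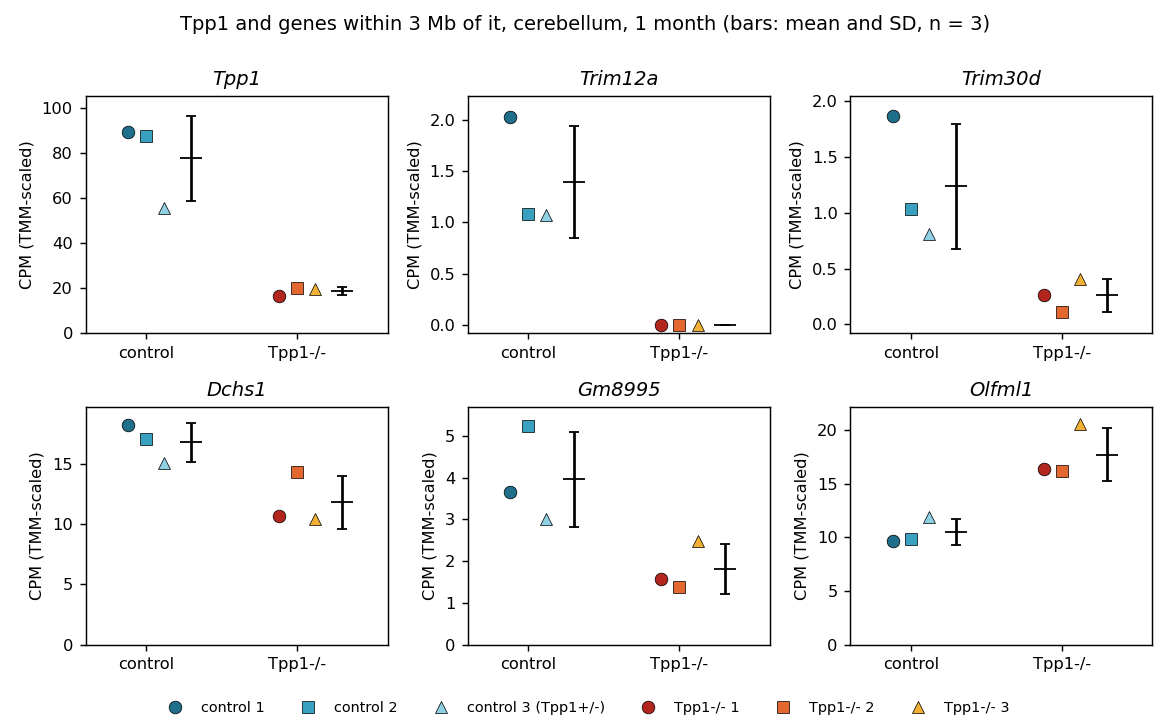
Levels of Tpp1 and of 5 genes within 3 Mb of it in the 6 libraries, in CPM (TMM-scaled), 1 panel per gene. Points are libraries and bars are mean and SD (n = 3). In all 6 panels the groups do not overlap, Olfml1 being the gene higher in Tpp1-/-.

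Other genes near Tpp1 also differed between the groups, without passing the adjusted threshold. Olfml1, which encodes a secreted olfactomedin-like protein, lay at 9.68, 9.87 and 11.9 CPM in controls and at 16.4, 16.2 and 20.6 CPM in Tpp1-/-. The groups did not overlap, with a log2 fold change of 0.75 (SE 0.16, unadjusted p = 0.000324, adjusted p = 0.63 by edgeR). The log2 fold change of Olfml1 was 0.84 in F/M. The 2-month Cb gave 0.75, where it was a DEG (adjusted p = 0.000788), and the 3-month Cb 0.19.

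Dchs1, the next gene to Tpp1 and a large cadherin of planar cell polarity, lay at 18.2, 17.1 and 15.1 CPM in controls and at 10.7, 14.3 and 10.4 CPM in Tpp1-/-. Every Tpp1-/- library was below every control, by a log2 fold change of -0.51 (SE 0.14, unadjusted p = 0.0019). The values of Dchs1 were -0.49 in F/M, -0.65 at 2 months (adjusted p = 0.000546) and -0.66 at 3 months (adjusted p = 0.327). Gm8995, a predicted gene, lay at 3.65, 5.23 and 3.02 CPM against 1.58, 1.37 and 2.48 CPM, again without overlap (log2 fold change -1.11, SE 0.28, unadjusted p = 0.00106). At 2 months the log2 fold change of Gm8995 was -0.96 (adjusted p = 0.0261) and at 3 months -0.28.

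Within the Trim cluster the members did not move alike. Trim30d lay at 1.86, 1.04 and 0.805 CPM in controls and at 0.263, 0.11 and 0.407 CPM in Tpp1-/- (log2 fold change -2.18, SE 0.49, unadjusted p = 0.000448), a difference of -2.14 at 2 months (adjusted p = 0.000844). Trim34a was lower, at 1.499, 1.13 and 1.21 against 0.300, 0.602 and 0.813 CPM, and its near copy Trim34b was higher, at 0, 0.18 and 0.369 against 0.676, 0.383 and 0.678 CPM, each without overlap of the groups. Trim34a and Trim34b share 1049 of their 50-base stretches, so reads of one can be counted to the other or dropped. Trim12c, in the same cluster, had a log2 fold change of 0.11 (unadjusted p = 0.61).

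Of the 32 genes tested within 3 Mb of Tpp1, Tpp1 aside, 10 (31.3%) had an unadjusted p under 0.05, against 7.61% of the genes on other chromosomes and 7.66% of all genes tested. The last share was 2.76% with the 6 libraries fitted alone, 3.84% without control 3 and 20.1% without Tpp1-/- 3. The share was 54.5% (6 of 11) at 1 to 2 Mb, where the Trim cluster lies, and 12.5% (7 of 56) at 3 to 5 Mb. The Cb and F/M values may come from the same mice. At 3 months, Trim12a (0.50), Trim34a (0.31) and Trim30d (0.18) were no longer lower in Tpp1-/-, each with an adjusted p over 0.8.

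**Figure D2:**
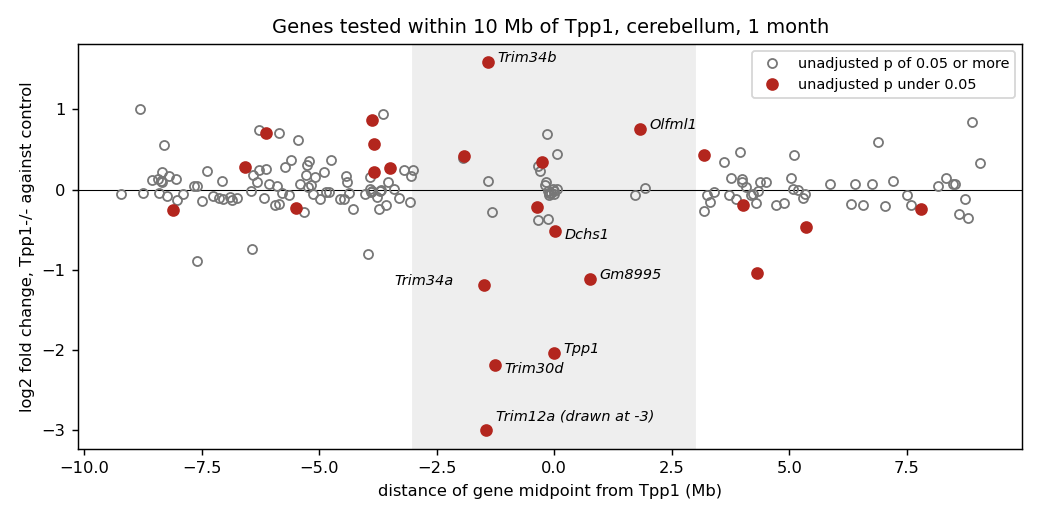
Log2 fold change (Tpp1-/- against control) of each gene tested within 10 Mb of Tpp1 against the distance of its midpoint from Tpp1 in Mb. Filled points have an unadjusted p under 0.05, the shaded band spans 3 Mb on each side, and Trim12a is drawn at -3 because its Tpp1-/- counts are 0. Filled points with a difference over 1 on the log2 scale in either direction lie within the band except for 1 gene near 4 Mb.

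Libraries 1 and 2 of Tpp1-/- lay apart from the other 4. On the first principal component, 38.5% of the variance, Tpp1-/- 1 was at 51.7 and the other libraries at -21.8 to 0.05. On the second, 21.4% of the variance, Tpp1-/- 2 was at 40.3 and the others at -10.7 to -2.09. The separation moved with gene length: in Tpp1-/- 1 the median difference from the control mean was 0.49 on the log2 CPM scale for protein-coding genes under 1 kb and -0.32 for those over 8 kb. In Tpp1-/- 2 these medians were 0.23 and -0.06, and in Tpp1-/- 3 they were -0.01 and 0.02. Controls carried length trends too. The Spearman correlation of length with deviation from the mean of the 6 libraries was 0.299 in control 3, 0.183 in control 1 and 0.036 in control 2. It was -0.395 in Tpp1-/- 1, -0.054 in Tpp1-/- 2 and 0.217 in Tpp1-/- 3. These values run across genes, which are not independent replicates. The correlation with GC content was 0.476 in Tpp1-/- 2, -0.398 in control 2 and between -0.269 and 0.175 in the other libraries.

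**Figure D3:**
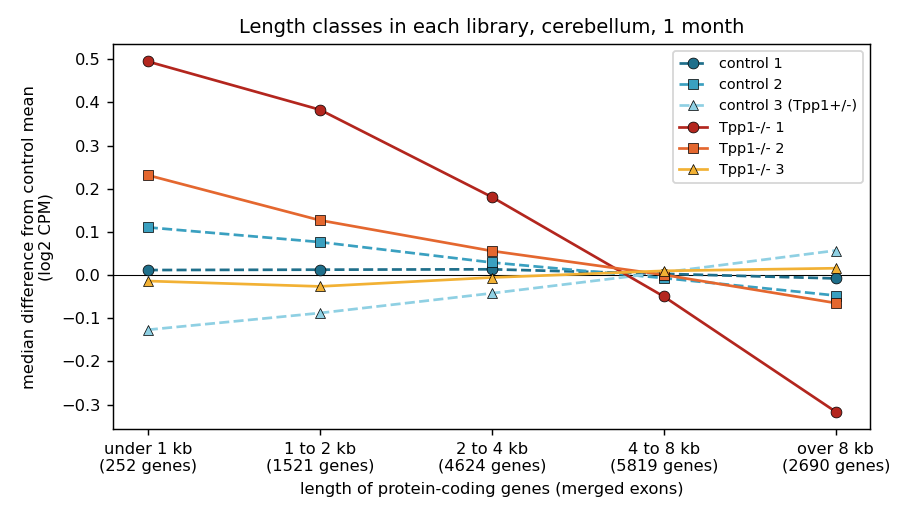
Median difference of each library from the control mean (log2 CPM) for protein-coding genes in 5 classes of merged exon length. Tpp1-/- 1 falls from 0.49 in the shortest class to -0.32 in the longest, and Tpp1-/- 3 stays between -0.03 and 0.02.

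A looser threshold was an unadjusted p under 0.1 with at least 1.5-fold. By it 357 genes (1.99%) were higher and 213 (1.19%) lower in Tpp1-/-, 3.18% of all genes tested. Of these, 232 of the higher and 152 of the lower genes had a mean under 1 CPM. Among protein-coding genes 5.56% of the 252 under 1 kb were higher by this threshold, against 0.446% of the 2690 over 8 kb, while the lower genes were 0.397% and 0.409% of these classes and no more than 0.649% of any between. When the length trend of each library was removed, an alternative added after the data had been seen, the 2 DEGs were the same and the looser counts were 251 higher and 269 lower.

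Leaving out Tpp1-/- 3, which lies among the controls, gave 167 DEGs higher (0.912% of 18305 genes) and 105 lower (0.574%). The 167 were short, with a median exon length of 1533 bases against 3954 over all genes, and 144 were protein coding. Their median difference was 0.82 in Tpp1-/- 1, 0.65 in Tpp1-/- 2 and 0.02 in Tpp1-/- 3. The genes were chosen by Tpp1-/- 1 and 2, so high values there follow from the choice, which left out Tpp1-/- 3. Of the 165 with a value in Tpp1-/- 3 alone, 78 were higher there. Examples, chosen after their values were seen, were Rplp1, a protein of the ribosomal stalk, at 24.6, 26.4 and 23.2 CPM in controls and 42.1, 40.3 and 25.9 CPM in Tpp1-/-, and Chchd10, a protein of the mitochondrial intermembrane space, at 58.9, 64.2 and 60.1 against 99.4, 97.1 and 61.4 CPM. In both, Tpp1-/- 1 and 2 were far above the controls and Tpp1-/- 3 was next to them. The 105 lower genes were not long as a set, with a median exon length of 3769 bases, and 41 were protein coding. Among them was the long gene Vps13a, a lipid transfer protein also chosen after its values were seen. It lay at 100, 93.8 and 111 against 54.9, 75.8 and 101 CPM.

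Leaving out Tpp1-/- 1 and 2 instead, which leaves a single Tpp1-/- library assumed to vary like the others, gave 6 DEGs, with Tpp1 lower and Dbh, Lamp5, Npr3, Myo5b and Gm40518 higher, all 5 named after their values were seen. Dbh, the enzyme that makes noradrenaline, lay at 0.567, 0.901 and 0.268 CPM in controls and at 0.413, 0.547 and 4.29 CPM in Tpp1-/-. Lamp5, a lysosome-associated membrane protein of particular neurons, lay at 1.90, 2.03 and 1.51 against 1.46, 2.14 and 11.7 CPM. In both, Tpp1-/- 3 stood alone above the other 5 libraries. Over the 9 tested markers of the isthmus, pons and medulla the mean level of Tpp1-/- 3 was 0.85 above the control mean on the log2 scale, against -0.21 to 0.33 in the other libraries, and the part of neighbouring tissue in the values of Dbh and Lamp5 was not tested.

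The genes with the largest differences, among those past the looser threshold with groups that did not overlap and at least 1 CPM, were 51 higher and 29 lower. Groups did not overlap for 7.97% of all genes tested, 4.26% with Tpp1-/- above and 3.71% with it below. The 12 leading higher genes were Wdr86, Hba-a1, Gm37844, Klf2, Smad6, Chst5, Map3k15, Lag3, Smco4, Tcaf2, Calml4 and Hba-a2, with log2 fold changes from 0.78 to 1.06 and no adjusted p under 0.1. Hba-a1, a hemoglobin alpha chain of red blood cells, lay at 4.50, 4.82 and 2.79 CPM in controls and 11.8, 6.90 and 5.01 CPM in Tpp1-/-, and most of its sequence is shared with Hba-a2. Klf2, a transcription factor induced by blood flow in endothelium, lay at 5.75, 4.55 and 5.54 against 14.8, 7.28 and 6.78 CPM. In both genes Tpp1-/- 1 stood above the other 2 Tpp1-/- libraries.

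Lag3, an immune receptor made by microglia and lymphocytes, lay at 1.46, 0.901 and 1.31 CPM in controls and at 2.22, 2.41 and 1.90 CPM in Tpp1-/-. All 3 Tpp1-/- libraries were above the controls by a similar amount, with a log2 fold change of 0.81 (SE 0.22, unadjusted p = 0.00206). The log2 fold change of Lag3 was 0.05 at 2 months (adjusted p = 0.98 by edgeR) and 2.25 at 3 months (adjusted p = 1.96e-05). Of the other leading higher genes, Calml4, a calmodulin-like gene of the choroid plexus list, was a DEG in the same direction at 2 months (0.80, adjusted p = 0.078). Chst5, a carbohydrate sulfotransferase, was then a DEG in the opposite direction (-0.97, adjusted p = 0.0522). Neither was a DEG at 3 months, with log2 fold changes of -0.33 for Calml4 and -0.45 for Chst5.

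The 12 leading lower genes were Tpp1, Gm8995 and 10 others with log2 fold changes from -0.96 to -0.70: Gm29438, Gm44200, Gm38162, BC037032, Gm42510, 4732416N19Rik, Gm38104, Gm37509, Gm42672 and Gm17509. All 10 are predicted or clone-named transcripts. Unconfirmed transcripts of the annotation (class TEC) made up 56 of the 213 lower genes by the looser threshold, which is 6.96% of the 805 such transcripts tested, beside 1.19% of all genes, and 24 more (2.98%) were higher. The median difference of this class from the control mean was -0.46 in Tpp1-/- 1 and -0.16 in Tpp1-/- 2, against 0.16 in Tpp1-/- 3 and 0.18 in control 3.

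Gene families were then described with 40 lists, each by its counts and its median beside those of all genes: 4.31% higher and 3.35% lower at an unadjusted p under 0.05, a median log2 fold change of 0.01 and 51.3% of genes above 0. Tpp1 and Trim12a were the only list members called as DEGs. In bulk tissue fewer cells of a type and less RNA per cell cannot be told apart. Each list was also set as a mean level per library. In 3 of the 40 every Tpp1-/- library was above every control, those of lysosomal proteins, disease-associated microglia and complement. In 2, the NCL genes and the Trim genes, which hold Tpp1 and Trim12a, every Tpp1-/- library was below. Of the single genes tested, 4.26% had every Tpp1-/- library above every control and 3.71% below. Whether the lists stand out from these shares was not tested.

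**Figure D4:**
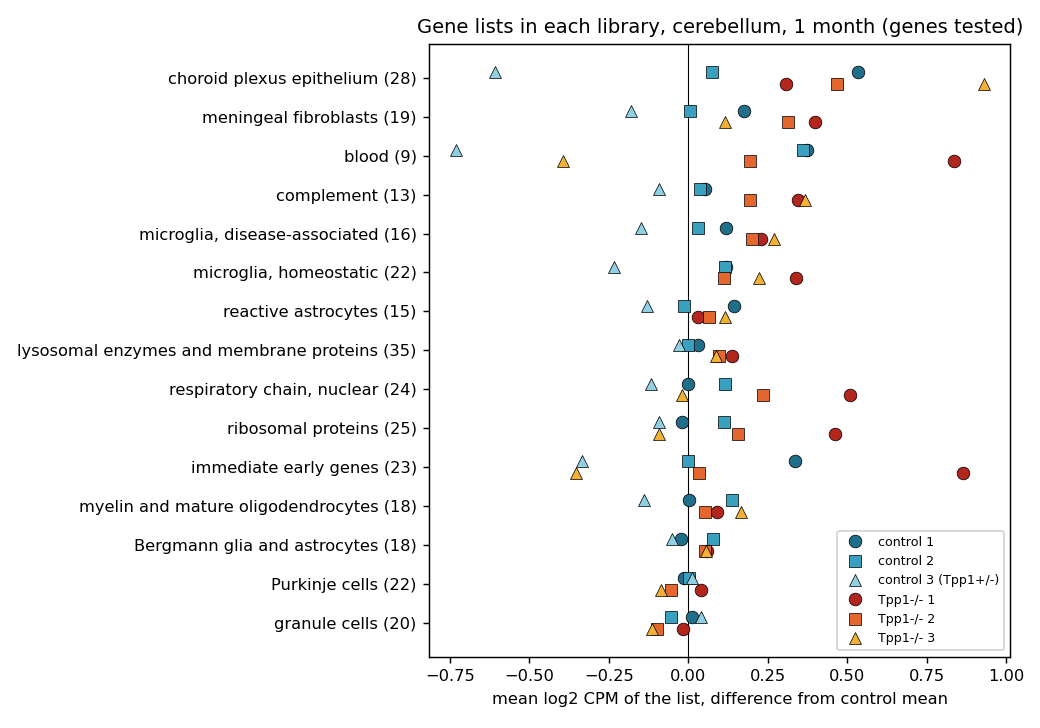
Mean log2 CPM of 15 gene lists in each library as the difference from the control mean, with the number of genes tested in parentheses. For complement, disease-associated microglia and lysosomal proteins all Tpp1-/- points lie right of the control points, the respiratory chain is led by Tpp1-/- 1 and 2, and choroid plexus runs from control 3 at the left to Tpp1-/- 3 at the right.

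Lysosomal enzymes and membrane proteins share the compartment in which TPP1 works. Of 35 genes tested, 29 had a log2 fold change above 0, 7 had an unadjusted p under 0.05, all higher, none reached 1.5-fold at an unadjusted p under 0.1, and the median was 0.13. The mean level was 0.09 to 0.14 above the control mean in the Tpp1-/- libraries and between -0.03 and 0.03 in the controls. Arsa, the sulfatase of sulfatide breakdown, lay at 27.1, 27.5 and 28.7 CPM in controls and at 36.1, 33.2 and 30.4 CPM in Tpp1-/- (log2 fold change 0.26, unadjusted p = 0.00757). All 3 Tpp1-/- libraries were above the controls. Ctss, a cathepsin of microglia, had a log2 fold change of 0.36 (unadjusted p = 0.00512), Ctsz, a carboxypeptidase, 0.32 (0.0147), and Psap, the precursor of the saposins that help degrade sphingolipids, 0.20 (0.0329). The membrane protein Lamp1, at 0.13, missed this threshold. The median was 0.11 without the heterozygous control, 0.12 with the length trend removed and 0.04 when Tpp1-/- 1 and 2 were left out.

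Of the 13 NCL genes tested, Tpp1 was the lone DEG. Ctsd, the aspartic protease cathepsin D whose loss causes congenital NCL, lay at 128, 133 and 120 CPM in controls and at 178, 153 and 140 CPM in Tpp1-/- (log2 fold change 0.30, SE 0.09, unadjusted p = 0.00574). Its groups did not overlap and Tpp1-/- 1 was the highest. Grn, the precursor of progranulin, had a log2 fold change of 0.29 (unadjusted p = 0.009). Ppt1, the thioesterase of infantile NCL, had a value of 0.00.

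Microglial genes did not all differ alike. The canonical homeostatic markers P2ry12, a purinergic receptor, and Tmem119 had log2 fold changes of -0.03 and 0.14. Itgam, the integrin CD11b, lay at 2.63, 2.21 and 1.98 CPM in controls and at 4.09, 3.56 and 3.52 CPM in Tpp1-/- (log2 fold change 0.72, SE 0.17, unadjusted p = 0.000885). Tyrobp, the adaptor through which TREM2 signals, lay at 3.36, 3.38 and 2.48 against 5.59, 4.05 and 4.52 CPM (log2 fold change 0.64, SE 0.17, unadjusted p = 0.00164). In both genes the groups did not overlap and the heterozygous control was the lowest library. The list of homeostatic markers also holds Ctss, counted among the lysosomal genes, and the C1q genes, counted again under complement. Over this list 7 of 22 had an unadjusted p under 0.05, all higher, 2 passed the looser threshold and the median was 0.19. Without the heterozygous control 1 member passed it and the median was 0.13, and with the length trend removed the median was 0.14.

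The subunits of C1q, the recognition molecule that starts the classical complement pathway and is made in brain by microglia, were all higher at an unadjusted p under 0.05. C1qb lay at 10.7, 12.4 and 10.03 CPM in controls and at 16.6, 14.7 and 13.8 CPM in Tpp1-/- (log2 fold change 0.45, SE 0.11, unadjusted p = 0.0014), with no overlap, C1qa had 0.41 (0.013) and C1qc 0.34 (0.0126). C4b, the fourth component and a gene of astrocytes, lay at 6.56, 6.44 and 7.11 against 7.10, 10.02 and 12.4 CPM (log2 fold change 0.54, unadjusted p = 0.015). Tpp1-/- 1 lay just below the heterozygous control for C4b, so the groups overlapped. All 13 complement genes tested had a log2 fold change above 0, 4 with an unadjusted p under 0.05 and none past the looser threshold, with a median of 0.34, of 0.27 without the heterozygous control and of 0.25 with the length trend removed.

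Among 16 genes of disease-associated microglia 14 were above 0, 5 had an unadjusted p under 0.05 and the median was 0.30 (0.16 without the heterozygous control, and 0.11 with 11 of 16 above 0 when Tpp1-/- 1 and 2 were left out). Clec7a, the beta-glucan receptor dectin-1 and a sharp marker of this state, lay at 0.284, 0.315 and 0.369 CPM in controls and at 0.638, 0.383 and 0.813 CPM in Tpp1-/- (log2 fold change 0.92, unadjusted p = 0.0431). The groups did not overlap, at levels of few reads. Itgax, CD11c, had 0.29 (unadjusted p = 0.602) and Lpl, lipoprotein lipase, 0.38 (0.0265). Apoe, the lipid carrier of astrocytes and activated microglia, lay at 742, 783 and 634 against 1042, 1041 and 700 CPM (log2 fold change 0.37, unadjusted p = 0.0124), where Tpp1-/- 3 fell inside the control range and the value was -0.06 when Tpp1-/- 1 and 2 were left out.

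Gfap, the intermediate filament of reactive astrocytes and Bergmann glia, lay at 181, 185 and 156 CPM in controls and at 213, 230 and 231 CPM in Tpp1-/-. The groups did not overlap, with a log2 fold change of 0.37 (SE 0.09, unadjusted p = 0.00102). Over the reactive astrocyte list, Gfap included, 10 of 15 genes were above 0, 3 had an unadjusted p under 0.05, and the median of 0.09 was -0.01 without the heterozygous control and 0.15 with the length trend removed. Serpina3n, a secreted protease inhibitor, had 0.45 (unadjusted p = 0.0298) at 1 month and -0.93 at 2 months.

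Genes of the choroid plexus, the epithelium that makes cerebrospinal fluid and is attached to the roof of the fourth ventricle, differed widely between libraries of the same genotype. All 28 genes tested were above 0, 11 passed the looser threshold as higher and none as lower, and the median log2 fold change was 0.50. Their summed level was 1945, 1356 and 728 CPM in controls and 1681, 1845 and 2722 CPM in Tpp1-/-, so that control 1 lay above Tpp1-/- 1 and 2, and the groups overlapped. Ttr, the carrier of thyroxine, lay at 827, 501 and 209 CPM against 817, 869 and 1165 CPM (log2 fold change 0.89, SE 0.32, unadjusted p = 0.0139). Without the heterozygous control, 1 of 28 passed the looser threshold and the median was 0.28, and without Tpp1-/- 3 the numbers were 4 and 0.34. The median was 0.77 without control 1 and 0.67 without Tpp1-/- 1, and with Tpp1-/- 1 and 2 left out it was 0.87, with 20 of 28 past the looser threshold. Lbp, the lipopolysaccharide-binding protein, was one of 2 members whose groups did not overlap, at 6.97, 5.36 and 4.97 against 7.32, 8.32 and 10.3 CPM.

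Sostdc1, an antagonist of BMP and Wnt signalling, lay at 4.82, 2.34 and 1.41 CPM in controls and at 6.08, 4.05 and 8.36 CPM in Tpp1-/- (log2 fold change 1.13, unadjusted p = 0.00909), and Col8a1, a short-chain collagen, at 8.55, 7.12 and 4.50 against 9.65, 8.54 and 15.4 CPM (log2 fold change 0.75, unadjusted p = 0.00728). For both, control 3 was the lowest and Tpp1-/- 3 the highest library. The water channel Aqp1 had 0.99 (unadjusted p = 0.0264) and Kl, which encodes klotho, 0.59 (0.0867). The part of dissected choroid plexus in these values was not tested. At 2 months 10 of the 28 were DEGs, all higher, with a median of 0.56 and with 43 genes of 17229 (0.25%) higher and 1.8% lower in all, and at 3 months the median was -0.08. In F/M of 1 month it was 0.00.

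Meningeal fibroblast genes were mostly higher in Tpp1-/-, with Tpp1-/- 3 nearest to the controls. Igfbp2, a binding protein of insulin-like growth factors, lay at 28.6, 26.0 and 17.3 CPM in controls and at 42.7, 37.1 and 37.9 CPM in Tpp1-/- (log2 fold change 0.72, SE 0.15, unadjusted p = 0.000193, and adjusted p = 0.0202 by DESeq2). The groups did not overlap. Fmod, the collagen-binding proteoglycan fibromodulin, lay at 13.4, 14.7 and 14.5 against 19.2, 20.5 and 19.2 CPM, the tightest separation of the list (log2 fold change 0.47, unadjusted p = 0.00103). Mgp, an inhibitor of calcification, had 0.58 (0.00343) and Slc6a13, a transporter of GABA and taurine in the leptomeninges, 0.40 (0.0053). Of 19 genes 18 were above 0, 6 had an unadjusted p under 0.05, 1 passed the looser threshold and the median was 0.32 (0.23 without the heterozygous control, 0.19 without Tpp1-/- 1, 0.13 with Tpp1-/- 1 and 2 left out and 0.25 with the length trend removed). The mean level of the list in Tpp1-/- 3 lay below that of control 1, so the groups overlapped. Ptgds, a prostaglandin D synthase of meninges and choroid plexus named here after its value was seen, lay at 654, 636 and 544 against 973, 935 and 758 CPM (log2 fold change 0.54, unadjusted p = 0.000363).

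Short transcripts of housekeeping complexes were higher in Tpp1-/- 1 and 2 than in Tpp1-/- 3. All 24 nuclear genes of the respiratory chain were above 0 and 14 had an unadjusted p under 0.05, with a median of 0.27, which was 0.14 with the length trend removed and -0.03 when Tpp1-/- 1 and 2 were left out. Ndufa2, a subunit of complex I, lay at 30.9, 33.7 and 27.5 CPM in controls and at 48.6, 49.2 and 29.2 CPM in Tpp1-/-. The third Tpp1-/- library fell inside the control range. The 25 ribosomal protein genes had a median of 0.24, of 0.11 with the length trend removed and of -0.06 when Tpp1-/- 1 and 2 were left out. Mt3, the neuronal metallothionein, lay at 71.0, 80.6 and 74.7 against 123, 115 and 84.8 CPM (log2 fold change 0.52, SE 0.12, unadjusted p = 0.000593). The 9 genes of the mitochondrial genome had a median of -0.12, of -0.25 with the length trend removed and of -0.19 without Tpp1-/- 3. It was -0.03 when Tpp1-/- 1 and 2 were left out. Their mean level, against the control mean, was -0.38 in Tpp1-/- 2. It was 0.03 in Tpp1-/- 1 and 0.01 in Tpp1-/- 3, within the control range of -0.14 to 0.21.

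Granule and Purkinje cell genes had no member past either threshold. The 20 granule cell genes had a median of -0.05, with Gabra6 at -0.12. When Tpp1-/- 1 and 2 were left out, the medians were -0.12 for granule cells and -0.11 for Purkinje cells, each with 1 gene above 0. The 22 Purkinje cell genes, of the sole output neurons of the cerebellar cortex, had a median of 0.00, and 4 had an unadjusted p under 0.05, all lower, among them the transcription factor Rora (-0.30), the potassium channel Kcnma1 (-0.33) and the kinase Prkg1 (-0.25). These are long genes, with merged exons of 10861 (Prkg1) to 16976 bases (Kcnma1), and with the length trend removed Kcnma1 alone of these 3 had an unadjusted p under 0.05 (0.0474). Calb1, the calcium buffer calbindin, lay at 1017, 1107 and 1055 CPM in controls and at 1326, 805 and 988 CPM in Tpp1-/-. Tpp1-/- 1 was above all controls and the other 2 below. The 18 myelin genes had a median of 0.08 (0.01 without the heterozygous control), with none past the looser threshold and 2 at an unadjusted p under 0.05. Mbp, myelin basic protein, had a log2 fold change of 0.08, and those 2 were Gjb1, the gap junction protein connexin 32, at 0.38 (unadjusted p = 0.00266) and Trf, transferrin, at 0.54 (0.00519).

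The lists were followed in the Cb of the older mice, which were different animals counted with other annotation releases. Their controls were all wild type and their sexes differed from those of 1 month, so age cannot be told apart from these differences. The microglial, complement and astrocyte lists had small medians at 2 months (homeostatic -0.07, disease-associated 0.01, complement 0.08, reactive astrocytes 0.07) and their largest values at 3 months (0.71, 0.99, 1.02 and 0.73). At 3 months 10 of 22, 8 of 16, 6 of 13 and 6 of 15 of their members were DEGs, all higher, beside 0.673% of all genes tested. The C1q genes count in both the homeostatic and the complement list, so these counts are not separate. At 3 months Tyrobp had a log2 fold change of 1.89, C1qb of 1.62, Clec7a of 4.14 and Gfap of 1.77. The lysosomal list had medians of 0.13, 0.04 and 0.12 at the 3 ages. Differences between ages were not tested, since each age was counted and fitted on its own.

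**Figure D5:**
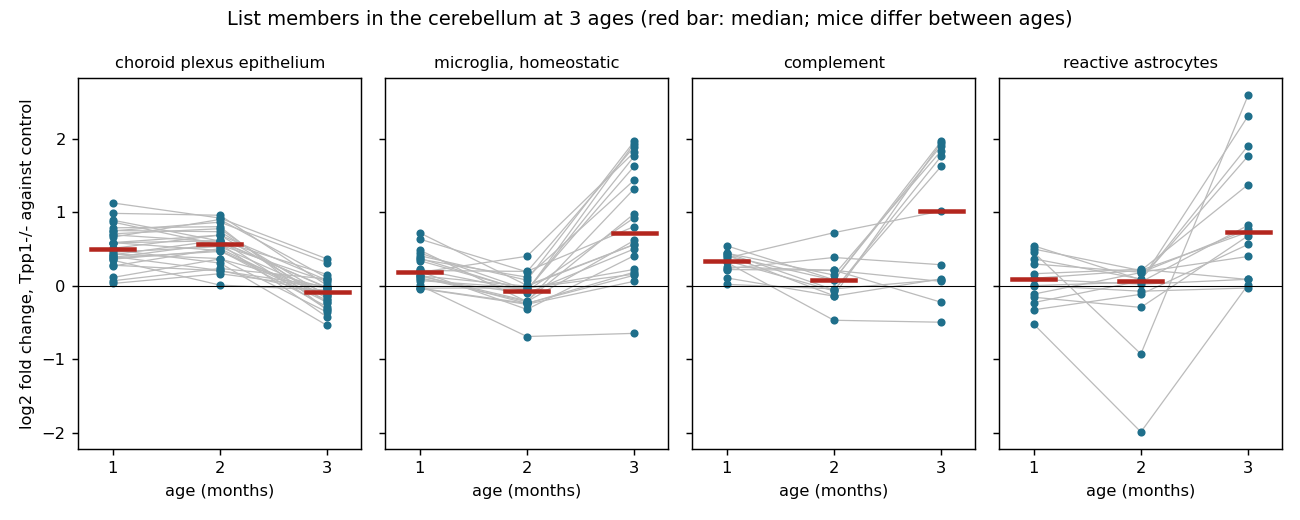
Log2 fold change (Tpp1-/- against control) in the Cb at 1, 2 and 3 months of each member of 4 lists, with grey lines joining a gene and red bars at the median. Choroid plexus medians are 0.50, 0.56 and -0.08, and those of complement 0.34, 0.08 and 1.02.

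Single genes were also followed to the later ages. Of the 357 genes higher by the looser threshold at 1 month, 314 were tested at 2 months, of which 46.8% were above 0 and 23 were DEGs higher and 11 lower, beside 8477 above 0, 42 higher and 307 lower of the 16955 genes tested at both ages. Of the 213 lower genes 162 were tested at 2 months, of which 59.3% were above 0, with 0 DEGs higher and 7 lower, 5 of which were Tpp1 and its neighbours Trim12a, Trim30d, Trim34a and Gm8995. Over all 8743 genes with a positive value at 1 month 40.9% were above 0 at 2 months, and over the 8194 with a negative value 59.7% were. At 3 months the shares of such genes above 0 were 53.2% and 45.0%. Of the higher genes 314 were also tested at 3 months, of which 44.3% were above 0, with 7 DEGs in each direction, beside 49.2% above 0, 105 higher and 31 lower of 17035, and of the 168 lower genes tested then 84 were above 0 and 1 was a DEG, Tpp1. Between Cb and F/M at 1 month no gene had a different genotype effect at an adjusted p under 0.1 by edgeR, fitted without a replicate block. At an unadjusted p under 0.05, 347 genes (1.94%) did. The result with a block is given further below.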

How the data were processed

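Messenger RNA of 6 Cb libraries (3 per genotype, 1 month) was sequenced by the authors as 50-nt single-end reads and aligned to mm10 with STAR 2.5.2b, and the libraries were made with a stranded mRNA kit, per the labels. The deposited files hold raw counts per gene, made by the authors with featureCounts 1.6.3 and GENCODE M21 with a strand setting of 1, per the file headers (1.6.2 at the other ages, with other annotation releases and, at 2 months, a strand setting of 2). Groups came from the labels. Members and lists were chosen with earlier results of these data known.

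From these counts genes were kept by filterByExpr and fitted with edgeR 4.0.16 (R 4.3.3; TMM scaling, quasi-likelihood F test) over the 12 libraries of 1 month in 4 groups, so that Cb and F/M share one estimate of the spread, and each older age was fitted by itself. The quasi-likelihood F test on 3 libraries a group measures the spread between these mice. SE was the log2 fold change divided by the root of F. List levels used log2 CPM with a prior count of 2. Counting error was covered by the fit, and the floor for a count of 0 was 3 counts per library. The fit was tested on simulated counts. Named genes were Tpp1, the DEGs, the 12 higher and 12 lower genes with the largest change past an unadjusted p of 0.1 and 1.5-fold without overlap and with at least 1 CPM, the first 3, the 4 of smallest p and the 3 most abundant genes of each list, and genes within 3 Mb of Tpp1 with an unadjusted p under 0.1. Others are marked as chosen after their values were seen, and some items that the rule names are not reported here. Alternatives were other scaling, filters and thresholds, DESeq2 1.42.0, limma-voom (limma 3.58.1), the 6 libraries alone, a replicate block, sex as a covariate, leaving out libraries and, added later, removal of the length trend. The F/M of 2 and 3 months entered only the shared estimate of the spread of its age.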

Additional observations from a re-analysis of the deposited data

Results flagged for a closer look

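Smad6, an inhibitor of BMP and TGF-beta signalling, had opposite directions in the regions and no difference past the adjusted threshold. In Cb it lay at 1.13, 1.13 and 1.01 CPM in controls and at 2.67, 1.81 and 1.36 CPM in Tpp1-/-, with every Tpp1-/- library above the controls, and in F/M at 1.78 to 2.05 CPM in controls and 0.781 to 1.17 CPM in Tpp1-/-, with every Tpp1-/- library below. The difference of the log2 fold changes, Cb minus F/M, was 1.79 (SE 0.38, unadjusted p = 0.00027 and adjusted p = 1.0 over 17916 genes by the edgeR interaction test).

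Map3k15, a kinase of the stress-activated cascade, had opposite directions as well, higher in the 3 Tpp1-/- libraries of Cb (log2 fold change 0.84) and lower in those of F/M, at 3.35 to 4.11 CPM in controls against 2.67 to 2.98 CPM in Tpp1-/-. The difference was 1.28 (SE 0.35, unadjusted p = 0.00237, adjusted p = 1.0).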

How the results depend on the processing

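Tpp1 was lower at an adjusted p under 0.1 in all 17 alternatives (log2 fold change -2.23 to -1.92). The 2 DEGs became 82 with no filter on low counts (33518 genes), 5 by DESeq2 (Igfbp2, Olfml1 and Phlda3 in addition), 6 with Tpp1-/- 1 and 2 left out and 1 at an adjusted p under 0.05. Leaving out 1 library gave 1 to 272, the highest without Tpp1-/- 3. The 357 higher genes became 781 with no filter, 216 with a filter of 1 CPM, 217 with the 6 libraries alone and 206 at an unadjusted p under 0.05, and the 213 lower genes 572, 102, 132 and 118. Without 1 library they were 302 to 513 and 171 to 503. The split of higher to lower was 251 to 269 with the length trend removed and 319 to 302 by limma-voom. The cause of these changes was not tested, apart from the number of genes tested or libraries left.

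Same-numbered controls and Tpp1-/- libraries correlated at 0.186, -0.085 and 0.229 in their deviations, so the numbers were not shown to pair these samples. Same-numbered Cb and F/M libraries correlated at 0.0947 to 0.198, each of the 6 Cb libraries best with its own number, a hint from the data that the design does not state. With a block for the replicate number within each region there were 2 DEGs and 330 higher and 235 lower genes. With another block, for the replicate number within each genotype across Cb and F/M, the difference between regions gave 5 genes in place of 0. These were C1qtnf4, Scand1, Gm1673, Jund and Pcsk1n.

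With Tpp1-/- 1 and 2 left out, the sign turned for Psap (-0.012), Apoe (-0.059), Ndufa2 (-0.09), Chchd10 (-0.011), C1qtnf4 (-0.43), Scand1 (-0.52), Gm1673 (-0.28), Jund (-0.27) and Pcsk1n (-0.15). It turned without Tpp1-/- 3 for Dbh (-0.23, against 2.13 without Tpp1-/- 1) and Lamp5 (-0.020, against 1.98). Of 88 named genes at an unadjusted p under 0.1, 33 passed it with the same sign in every alternative.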

Other observations

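Several gene groups outside the account above moved with single libraries. Immediate early genes, transcribed within minutes of neuronal activity, had a median of 0.26 over 23 genes, which was 0.07 without control 3, -0.20 without Tpp1-/- 1 and -0.43 with Tpp1-/- 1 and 2 left out. Fos lay at 59.4, 36.0 and 8.56 CPM in controls and at 106, 23.4 and 15.3 CPM in Tpp1-/- (unadjusted p = 0.538), with the female library the highest of each genotype. The 9 genes of blood had a median log2 fold change of 0.40, of 0.23 with the length trend removed, of 0.11 without control 3 and of 0.03 with Tpp1-/- 1 and 2 left out, and Hbb-bs, a hemoglobin beta chain, had 0.42 (unadjusted p = 0.0485). All 11 genes of MHC class I were above 0, with a median of 0.24 and 1 of them at an unadjusted p under 0.05, and the median was 0.09 without control 3, 0.04 without Tpp1-/- 1 and -0.11 with Tpp1-/- 1 and 2 left out, when 5 of 11 were above 0.

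Phlda3, a p53 target that inhibits Akt, was named after its value was seen. It lay at 9.48, 8.24 and 7.11 CPM in controls and at 14.9, 15.5 and 10.2 CPM in Tpp1-/-, without overlap, and passed the adjusted threshold by DESeq2 (adjusted p = 0.0693) and not by edgeR. At 2 months it was a DEG in the opposite direction, with a log2 fold change of -0.73 (adjusted p = 0.00235 by edgeR).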
